A study of Sus scrofa with 24 samples.

Results

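FBXO32, FOXO1 and KLF15 were followed in the loin muscle of pigs fed different fats. All probe sets whose platform gene symbol was one of these names were taken, which gave 5 probe sets for 3 of the 6765 genes named on the array. Total RNA of longissimus dorsi from 24 crossbred pigs (Landrace × Large White × Duroc) was hybridised to a 1-colour Affymetrix array, 1 array per pig. The feed held soybean oil, olive oil, coconut oil or beef tallow at a concentration of 3.0%, and each fat was fed to 3 barrows (castrated males) and 3 gilts (young females). No group went without added fat, so each fat is set against the others alone. The pigs weighed 71 kg at about 130 days of age when they were allotted to pens of 3 pigs. Which pen a pig came from is not stated, and pen mates could not be allowed for. Each pig keeps the number of its sample, 13 to 24 for barrows and 1 to 12 for gilts.

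FOXO1 is a forkhead transcription factor that insulin and IGF1 restrain, since the kinase AKT phosphorylates it and keeps it out of the nucleus. When that signal weakens, in fasting or under glucocorticoids, FOXO factors turn on genes of protein breakdown. FBXO32, also called atrogin-1 or MAFbx, is one of them: it is the muscle-enriched F-box subunit of an SCF ubiquitin ligase that marks proteins for the proteasome. KLF15 is a Krüppel-like factor that glucocorticoids and fasting induce in muscle and that promotes breakdown of branched-chain amino acids; in rodents it also raises FBXO32. These roles were worked out largely in rodents and cell culture.

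FBXO32 was read by 2 probe sets, FOXO1 by 2 and KLF15 by 1. Values are deposited signals in array units, and differences are on the scale log2(signal + 1). FBXO32 had a mean signal of 8223 at its brighter probe set, Ssc.4368.1.S1_at, and 3513 at Ssc.4368.3.S1_at. FOXO1 had a mean signal of 1364 at Ssc.73.1.S1_at, and KLF15 had 1544 at Ssc.26463.1.S1_at. The second FOXO1 probe set, Ssc.73.2.A1_at, had signals between 7.6 and 123.8 and a mean of 54.2, under the signal of 86.3 required for testing, so 4 of the 5 probe sets were tested. Signals of different genes are not set against one another, since each probe set binds with its own strength. The brighter probe set of each gene is used below unless the other is named.

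The libraries looked like muscle. Of 10 fibre genes listed, 8 had a probe set, and their mean signals lay between 25590 for DES and 47640 for CKM. Array medians lay between 138.3 and 173.5, the mean correlation of an array with the others between 0.912 and 0.933, and the log2 ratio of 3' to 5' GAPDH control signals between 0.028 and 0.318 and that of actin between 0.882 and 1.836. The lowest of these correlations belonged to pigs 11, 16 and 12. In bulk muscle, fewer cells of a type and less RNA per cell cannot be told apart.

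FBXO32 varied more between pigs than most genes did. Its lowest signal was 797.4, in pig 7, a gilt fed olive oil, and its highest was 20433.6, in pig 17, a barrow fed olive oil, a ratio of 25.6. Its SD within groups of the same fat and sex was 0.87 on the log2 scale, above 98.1% of the tested probe sets. The ratio of highest to lowest signal was 3.84 for FOXO1 and 3.77 for KLF15, and their SDs within groups were 0.55 (percentile 89.1) and 0.36 (percentile 62.3). The 2 FBXO32 probe sets ranked the pigs almost alike, with r = 0.994 over 24 pigs, so this spread was not peculiar to 1 probe set.

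**Figure D1:**
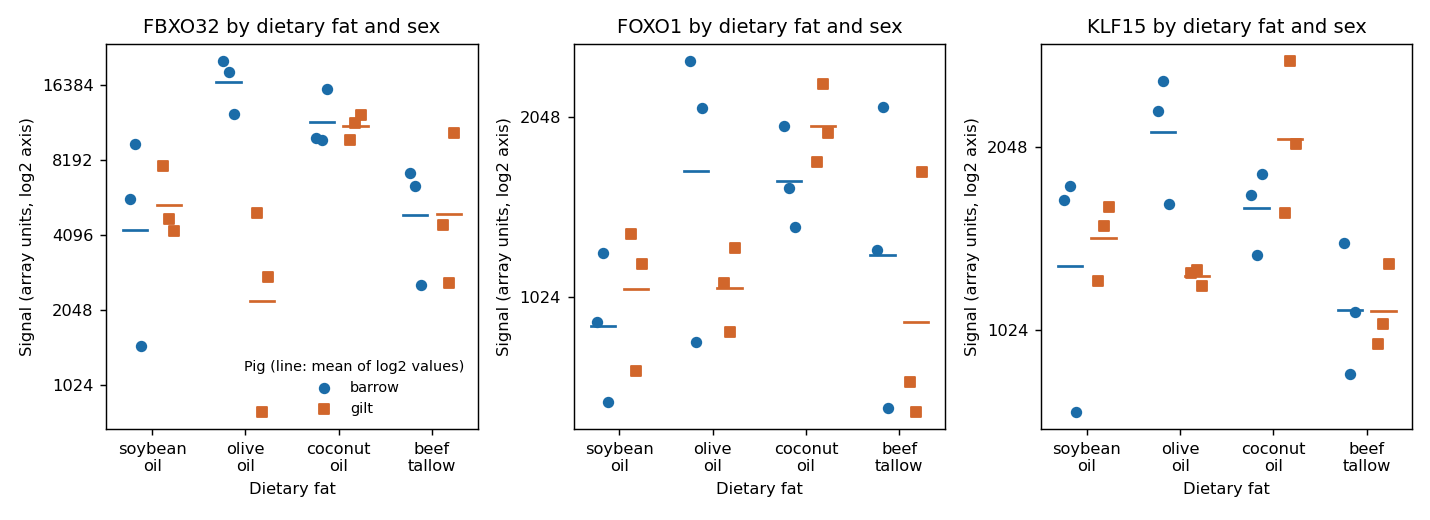
Signal of FBXO32, FOXO1 and KLF15 (array units, log2 axis) by dietary fat, with 1 point per pig, barrows as circles on the left and gilts as squares on the right of each fat, and a line at the mean of the log2 values of 3 pigs. FBXO32 with olive oil lay between 12599.3 and 20433.6 in barrows and between 797.4 and 5022.7 in gilts, and with coconut oil between 9914.4 and 15876.4 in both sexes together.

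FBXO32, the ubiquitin ligase subunit, was high with coconut oil in every pig. In barrows its signals were 1468.5, 5712.3 and 9529.1 with soybean oil, 12599.3, 18583.3 and 20433.6 with olive oil, 9921.4, 10018.6 and 15876.4 with coconut oil, and 2567.7, 6470.9 and 7245.4 with beef tallow. In gilts its signals were 4238.3, 4770.2 and 7728.6 with soybean oil, 797.4, 2771.7 and 5022.7 with olive oil, 9914.4, 11532.1 and 12480.4 with coconut oil, and 2630.0, 4510.8 and 10528.1 with beef tallow. All 6 pigs on coconut oil thus lay above all 6 on soybean oil, and 1 gilt on beef tallow reached into the coconut oil range. The pigs on olive oil held both extremes, barrows at the top and gilts at the bottom.

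FOXO1, the transcription factor, kept a similar order with smaller steps. In barrows its signals were 684.2, 932.1 and 1215.6 with soybean oil, 861.5, 2119.2 and 2533.6 with olive oil, 1340.4, 1556.7 and 1977.1 with coconut oil, and 669.3, 1230.0 and 2127.7 with beef tallow. In gilts its signals were 773.4, 1164.0 and 1307.2 with soybean oil, 897.0, 1084.0 and 1236.9 with olive oil, 1721.2, 1926.5 and 2320.1 with coconut oil, and 660.2, 739.1 and 1655.8 with beef tallow. Again every pig on coconut oil lay above every pig on soybean oil. The barrows on olive oil and both sexes on beef tallow were scattered, with pigs near the bottom and near the top of the range.

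KLF15, the Krüppel-like factor, was lowest with beef tallow. In barrows its signals were 750.1, 1671.0 and 1767.6 with soybean oil, 1646.9, 2348.8 and 2624.2 with olive oil, 1356.4, 1708.8 and 1848.0 with coconut oil, and 864.0, 1095.1 and 1422.0 with beef tallow. In gilts its signals were 1231.0, 1514.2 and 1627.5 with soybean oil, 1208.5, 1269.9 and 1284.2 with olive oil, 1593.1, 2069.7 and 2828.9 with coconut oil, and 968.7, 1045.7 and 1311.2 with beef tallow. In gilts every pig on coconut oil lay above every pig on olive oil and on beef tallow. The lowest of all 24 values belonged to pig 19, a barrow on soybean oil, which also had the lowest FBXO32 signal among barrows.

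On the log2 scale, olive oil had the highest mean in barrows for all 3 genes, without passing against coconut oil. Averaged over the sexes, the order of the fats put coconut oil first for all 3 genes. For FBXO32 the means were 12.23 ± 0.95 with soybean oil, 12.58 ± 1.83 with olive oil, 13.48 ± 0.27 with coconut oil and 12.28 ± 0.82 with beef tallow (SD, n = 6 each). For FOXO1 they were 9.95 ± 0.38 with soybean oil, 10.38 ± 0.65 with olive oil, 10.80 ± 0.28 with coconut oil and 10.05 ± 0.73 with beef tallow, and for KLF15 they were 10.43 ± 0.46, 10.69 ± 0.49, 10.85 ± 0.36 and 10.11 ± 0.27 in the same order of fats. Olive oil came next in each gene, followed by beef tallow and soybean oil for FBXO32 and FOXO1 and by soybean oil and beef tallow for KLF15. No pair of neighbours in these orders differed beyond its spread: their 95% intervals in limma, a linear model fitted to all 14399 tested probe sets, included 0.

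None of the 3 genes passed an adjusted p of 0.05 in any comparison of fats, averaged over the sexes or within a sex. A moderated F test over the 4 fats gave unadjusted p = 0.0405 for FBXO32, 0.0362 for FOXO1 and 0.00788 for KLF15, with limma's adjusted p of 0.404, 0.391 and 0.28. Over all 14399 probe sets this test called 0.

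Soybean oil and coconut oil were the pair of fats whose 6 pigs each did not overlap for FBXO32 and FOXO1. FBXO32 was lower with soybean oil than with coconut oil by a log2 difference of -1.25 ± 0.45 (SE; 95% interval -2.19 to -0.31), a factor of 2.38, with limma's adjusted p = 0.298. FOXO1 differed by -0.85 ± 0.29 (interval -1.46 to -0.24, limma's adjusted p = 0.277) and KLF15 by -0.43 ± 0.20 (interval -0.85 to -0.01, limma's adjusted p = 0.375). The 6 pigs on soybean oil and the 6 on coconut oil did not overlap for FBXO32, at both of its probe sets, nor for FOXO1, and 0.215% of the tested probe sets were separated in this way in the same direction. An exact permutation test of the fats within each sex, two-sided and unadjusted, gave p = 0.005 for FBXO32 and for FOXO1, the smallest that 400 relabelings allow, and p = 0.095 for KLF15. The difference held its sign in both sexes: for FBXO32 it was -1.43 in barrows and -1.06 in gilts, and for FOXO1 -0.80 in barrows and -0.90 in gilts. Without pig 19, a barrow on soybean oil, the FBXO32 difference was -0.86 over both sexes (limma's adjusted p = 0.492) and -0.66 in barrows, and that of KLF15 was -0.23 over both sexes and 0.08 in barrows. This comparison called 0 of the tested probe sets in limma with all 24 arrays, and 1875 had an unadjusted p under 0.05.

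Coconut oil minus beef tallow, averaged over the sexes, called 1.12% of the tested probe sets, 37 higher and 124 lower with coconut oil. All 3 genes had a positive difference there without passing. KLF15 was higher with coconut oil by 0.75 ± 0.20 (interval 0.33 to 1.17, limma's adjusted p = 0.0639). It passed in limma with array weights (adjusted p = 0.0214) and among the probe sets above the 60th percentile of signal (adjusted p = 0.0464), and not in the other limma settings tried. Of 24 fits that each left out 1 pig, 2 passed, without pig 12 (adjusted p = 0.0451) or pig 19 (adjusted p = 0.0425). Neither pig was fed coconut oil or beef tallow, so the difference stayed at 0.75 and only the estimated spread and the adjustment changed. The exact permutation p was 0.01 without adjustment. FBXO32 differed by 1.20 ± 0.45 (interval 0.27 to 2.14, limma's adjusted p = 0.143; exact permutation p = 0.01), and FOXO1 by 0.75 ± 0.29 (interval 0.14 to 1.36, limma's adjusted p = 0.163; exact permutation p = 0.065). For each gene, all 6 pigs on coconut oil lay above the mean of the 6 on beef tallow, although the groups overlapped. Within a sex, FBXO32 differed by 1.24 in barrows and 1.17 in gilts, FOXO1 by 0.41 in barrows and 1.08 in gilts, and KLF15 by 0.56 in barrows and 0.94 in gilts. The FBXO32 signals did not overlap in barrows, where 10.0% of the tested probe sets were separated in that direction, and those of FOXO1 and KLF15 did not overlap in gilts, where 5.38% were.

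Over both sexes, the summed marker signals of fibroblasts and of adipocytes overlapped between these groups, with lower medians with coconut oil. Of the fibroblast markers, THY1 (-0.95), FBN1 (-0.69), POSTN (-1.6), DCN (-0.71) and COL1A2 (-1.46) passed as lower with coconut oil (limma's adjusted p 0.0303 to 0.0479). LUM (-0.64) and COL3A1 (0.105) did not pass. Of the adipocyte markers, FABP4 passed (-1.09, limma's adjusted p = 0.0483), and the others were lower without passing. The summed signal of 7 fibroblast markers lay between 20982 and 28488 (median 23377) with coconut oil and between 26189 and 68334 (median 39023) with beef tallow. That of 6 adipocyte markers lay between 9977 and 20880 (median 15025) with coconut oil and between 13662 and 45153 (median 26643) with beef tallow. In gilts both sums overlapped, and in barrows neither did. The fibroblast sum in barrows was 20982 to 24310 with coconut oil and 37526 to 68334 with beef tallow. The adipocyte sum in barrows was 9977 to 11595 with coconut oil and 23666 to 37354 with beef tallow. The sums of 2 satellite cell markers overlapped, at 529 to 1005 (median 697) with coconut oil and 405 to 847 (median 619) with beef tallow. The 2 markers went opposite ways without passing, MYOD1 by 0.38 and MYF5 by -0.36 (limma's adjusted p = 0.329 and 0.606). The 8 fibre markers summed to between 297524 and 388277 with coconut oil and between 263200 and 354078 with beef tallow. None of the listed markers with a probe set was at 0, and array medians were 138.3 to 157.2 with coconut oil and 152.3 to 173.5 with beef tallow. In barrows the array medians did not overlap, at 138.3 to 148.2 with coconut oil and 161.5 to 173.5 with beef tallow. In gilts the GAPDH 3' to 5' log2 ratios did not overlap, at 0.214 to 0.234 with coconut oil and 0.121 to 0.171 with beef tallow. The part of these values in the differences of the 3 genes was not tested.

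**Figure D2:**
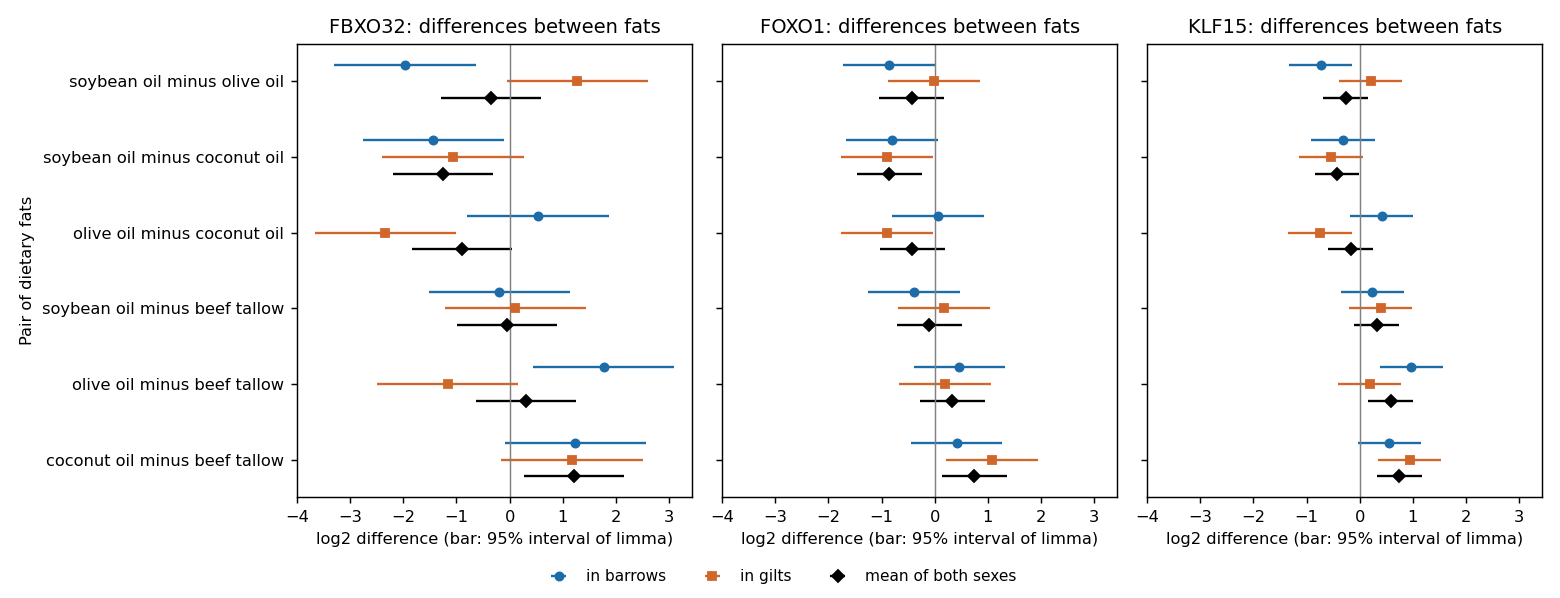
Log2 differences between each pair of fats for FBXO32, FOXO1 and KLF15, with 95% intervals from limma, in barrows (circles, n = 3 per fat), in gilts (squares, n = 3 per fat) and averaged over the sexes (diamonds, n = 6 per fat). For FBXO32, olive oil minus coconut oil was 0.53 in barrows and -2.33 in gilts, and coconut oil minus beef tallow was 1.24 in barrows and 1.17 in gilts.

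For each of the 3 genes the sexes lay farthest apart with olive oil, without passing in the main fit. With olive oil, FBXO32 was higher in barrows than in gilts by 2.92 ± 0.64 (SE; interval 1.59 to 4.24), a factor of 7.55, with limma's adjusted p = 0.065. The second probe set gave 3.05 ± 0.70 (limma's adjusted p = 0.071). The 3 barrows and the 3 gilts did not overlap, at 12599.3 or more in barrows and 5022.7 or less in gilts, and 7.98% of the tested probe sets were separated in that direction; 3 pigs against 3 cannot give an exact permutation p under 0.1, which was the value found. With each array centred on its median, the difference was 3.01 and passed (limma's adjusted p = 0.0485), and it did not pass in the other limma settings tried. Of 24 fits that each left out 1 pig, 1 passed, without pig 19 (limma's adjusted p = 0.0395). Pig 19 was fed soybean oil, so the difference stayed at 2.92 and only the estimated spread and the adjustment changed. KLF15 was also higher in barrows without overlap, by 0.79 ± 0.29 (limma's adjusted p = 0.211), and FOXO1 differed by 0.65 ± 0.41 (limma's adjusted p = 0.449), with 1 barrow, at 861.5, below all gilts. This comparison called 0.188% of the tested probe sets.

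The summed adipocyte signal with olive oil was 13008, 14423 and 15992 in barrows and 14890, 39087 and 47190 in gilts. The fibroblast markers summed to 24920, 28168 and 34254 in barrows and to 31399, 32120 and 44796 in gilts. The fibre markers summed to 281340, 289481 and 345706 in barrows and to 224756, 346659 and 363426 in gilts. For the adipocyte markers 1 gilt, at 14890, lay within the range of the barrows and the other 2 lay above it. The GAPDH 3' to 5' log2 ratio was 0.194 to 0.217 in barrows and 0.096 to 0.193 in gilts. The part of these values in the FBXO32 difference was not tested.

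With the other 3 fats the sexes overlapped for each of the 3 genes. Averaged over the 4 fats, barrow minus gilt was 0.66 ± 0.32 for FBXO32 (interval -0.01 to 1.32, limma's adjusted p = 0.243), 0.13 ± 0.21 for FOXO1 and 0.07 ± 0.14 for KLF15. The exact permutation p, with the sexes exchanged within each fat, was 0.156 for FBXO32, 0.566 for FOXO1 and 0.695 for KLF15. By contrast, 4.77% of the tested probe sets were called between the sexes.

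In these pigs the rank of olive oil among the fats differed between barrows and gilts, although the tests of that difference, given below, did not pass. In barrows, olive oil minus beef tallow was 1.77 ± 0.64 for FBXO32 (limma's adjusted p = 0.197) and 0.97 ± 0.29 for KLF15 (limma's adjusted p = 0.122). Neither gene overlapped between those groups, which was true of 7.13% of the tested probe sets in that direction, and 0.118% were called. In gilts, olive oil minus coconut oil was -2.33 ± 0.64 for FBXO32 (limma's adjusted p = 0.334), -0.89 ± 0.41 for FOXO1 (limma's adjusted p = 0.479) and -0.75 ± 0.29 for KLF15 (limma's adjusted p = 0.422). All 3 genes were without overlap in that pair, as were 6.31% of the tested probe sets in the same direction.

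The difference between the sexes in the response to fat was tested directly. For FBXO32 a moderated F test for unequal fat effects in barrows and gilts gave unadjusted p = 0.00553 and limma's adjusted p = 0.778, and for KLF15 it gave unadjusted p = 0.0483 and limma's adjusted p = 0.778. For FOXO1 limma's adjusted p was 0.824. Olive oil minus coconut oil was positive in barrows and negative in gilts for each gene, and the signed difference in barrows minus that in gilts was 2.87 ± 0.90 for FBXO32, 0.95 ± 0.59 for FOXO1 and 1.16 ± 0.40 for KLF15, with limma's adjusted p between 0.871 and 0.929. For olive oil minus beef tallow, barrows minus gilts was 2.93 ± 0.90 for FBXO32 (limma's adjusted p = 0.306) and 0.78 ± 0.40 for KLF15 (limma's adjusted p = 0.482). Soybean oil minus olive oil was -1.97 ± 0.64 in barrows and 1.27 ± 0.64 in gilts for FBXO32, neither passing. Barrows minus gilts for that pair was -3.24 ± 0.90 for FBXO32, -0.85 ± 0.59 for FOXO1 and -0.94 ± 0.40 for KLF15 (limma's adjusted p = 0.898 for each). The interaction test called 0 of all tested probe sets.

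Across pigs, FBXO32 moved with both transcription factors. Over 24 pigs, FBXO32 and FOXO1 had Pearson's r = 0.669 and Spearman's rho = 0.716 (permutation p = 0.00025 for r and 0.00012 for rho; adjusted over the 3 pairs, 0.000375 and 0.00018). FBXO32 and KLF15 had r = 0.693 and rho = 0.768 (permutation p = 0.0002 and 2e-05; adjusted, 0.000375 and 6e-05). After the mean of each fat and sex was taken away, r was 0.535 for FBXO32 with FOXO1 and 0.505 for FBXO32 with KLF15 (adjusted permutation p = 0.0182 for both). That permutation moved values freely over all 24 pigs, although those of a group of 3 pigs are tied by their mean, so its p can be too small. Without pigs 7 and 19, the 2 farthest from the FBXO32 median, r was 0.659 and 0.717.

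FOXO1 and KLF15 were tied more loosely. Their r over 24 pigs was 0.477 and rho 0.477 (permutation p = 0.0187 for r and 0.0196 for rho, the same after adjustment). It was 0.305 without pigs 5 and 17, the 2 farthest from the FOXO1 median (adjusted permutation p = 0.168), so its pass over all pigs rests on those 2; leaving them out also narrows the range of FOXO1. After the group means were taken away it was 0.094 (adjusted permutation p = 0.663). Within a sex, r was 0.267 in 12 barrows (adjusted permutation p = 0.403) and 0.768 in 12 gilts (adjusted permutation p = 0.00675); the difference between these correlations was not tested. FBXO32 and KLF15 had r = 0.855 in barrows and 0.528 in gilts (adjusted permutation p = 0.00165 and 0.0804). FBXO32 and FOXO1 had r = 0.639 in barrows and 0.708 in gilts (adjusted permutation p = 0.0353 and 0.0125), with rho = 0.545 in barrows not passing (adjusted permutation p = 0.108).

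**Figure D3:**
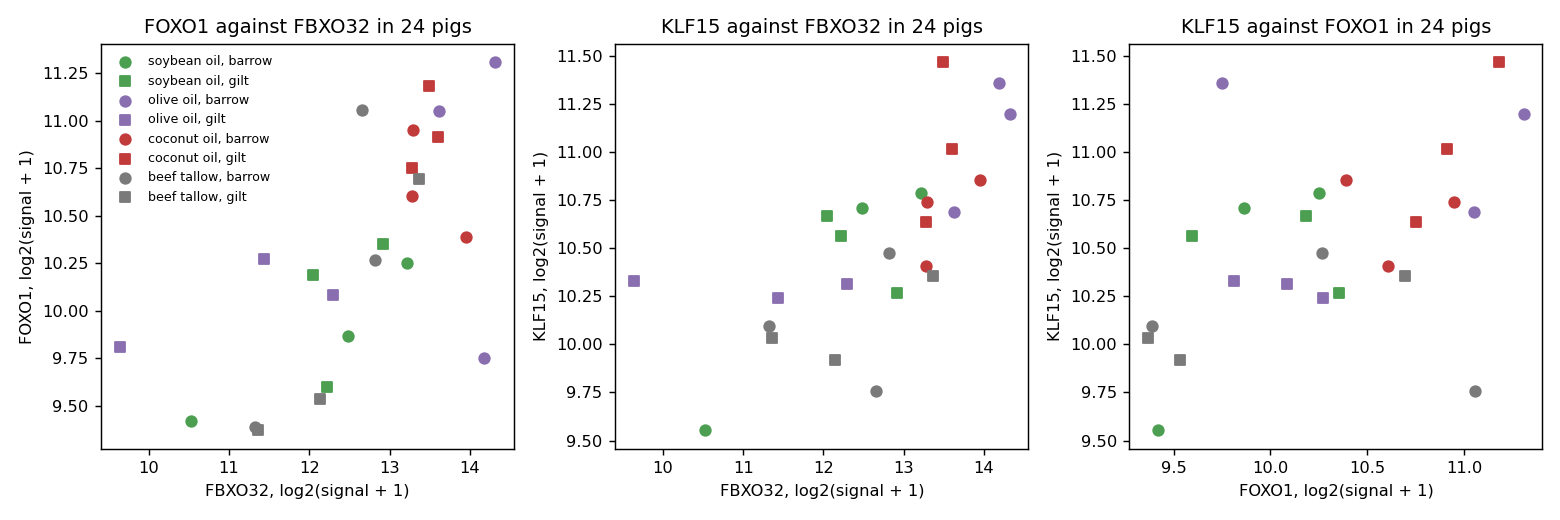
Log2(signal + 1) of FOXO1 against FBXO32, KLF15 against FBXO32 and KLF15 against FOXO1, with 1 point per pig (24 pigs), coloured by fat, circles for barrows and squares for gilts. Pearson's r was 0.669, 0.693 and 0.477 from left to right.

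Among 5344 other genes with a tested probe set, FOXO1 was 13th and KLF15 7th in the order of correlation with FBXO32. The 5 genes most like FBXO32 over the 24 pigs were DDIT4L (r = 0.786), BHLHE40 (r = 0.746), LOC100522401 (r = 0.735), TFIP11 (r = 0.729) and TUBB4B (r = 0.726). For FOXO1 they were VPS11 (r = 0.720), GRB10 (r = 0.704), DDIT4L (r = 0.697), FKBP5 (r = 0.673) and FBXO32 itself (r = 0.669). For KLF15 they were PI4K2A (r = 0.787), DDIT3 (r = 0.780), RASGEF1B (r = 0.778), RRAGC (r = 0.774) and SNRPD3 (r = 0.750). These likenesses were picked as the highest of many and carry no test; all points share their array with the gene they are compared with.

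DDIT4L, an inhibitor of mTOR complex 1 signalling, stood in the lists of both FBXO32 and FOXO1. With olive oil its signals were 6708.4, 7654.1 and 8421.0 in barrows and 1980.8, 2769.8 and 3869.6 in gilts. With coconut oil they were 4987.9, 6363.2 and 6701.7 in barrows and 4426.2, 5697.8 and 6895.9 in gilts. The sexes did not overlap with olive oil, where barrow minus gilt was 1.45 without passing (limma's adjusted p = 0.113), and overlapped with coconut oil. DDIT4L was chosen for its likeness to FBXO32 in these same pigs, so this is a description. FKBP5, a co-chaperone of the glucocorticoid receptor and a gene that glucocorticoids induce, overlapped between the sexes: with olive oil its signals were 1483.2, 1709.7 and 2851.8 in barrows and 1505.0, 1863.4 and 2245.4 in gilts.

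The genes around these 3 were taken from a list of 138 in 11 role groups, of which 91 had a probe set and 84 were tested at their brightest one. For coconut oil minus beef tallow, 0 of the 84 rose and 1 fell, with a median difference of 0.10 against -0.04 over all tested probe sets, of which 1.12% were called. For soybean oil minus coconut oil 0 passed, with a median of -0.05 against 0.02. For barrow minus gilt 5 rose and 0 fell, with a median of -0.03 against -0.02, beside 4.77% called over all tested probe sets. Both counts lay close to the share over all probe sets. The genes named here passed a test or had the 2 smallest F test p of their group.

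Upstream of FOXO1, 0 of 10 tested genes of insulin, IGF and AKT signalling passed for coconut oil minus beef tallow, with a median of -0.29. IGF2, a growth factor, differed by -0.42 ± 0.14 at its brightest probe set (limma's adjusted p = 0.115), and SGK1, a kinase that phosphorylates FOXO factors, by -0.55 ± 0.31 (limma's adjusted p = 0.331). In barrows alone another IGF2 probe set fell, by -0.96 ± 0.24 (limma's adjusted p = 0.0451), and so did a dimmer probe set of PIK3IP1, an inhibitor of phosphoinositide 3-kinase, by -1.0 ± 0.22 (limma's adjusted p = 0.0348). That comparison called 2.07% of the tested probe sets, 50 higher and 248 lower. Both calls were lost with each array centred on its median (limma's adjusted p = 0.0805 for IGF2 and 0.0583 for PIK3IP1). The IGF2 probe set was 1 of 9 tested, and its call was kept in 9 of 24 fits without 1 pig and 4 of 8 other settings; that of PIK3IP1 was kept in 19 of 24 and 3 of 7. FOXO3, the other FOXO factor tested, differed by 0.13 (limma's adjusted p = 0.792). PPARGC1A, the mitochondrial coactivator whose product restrains FOXO3 in mice, had a difference of 1.55 ± 0.44 (limma's adjusted p = 0.0708).

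Of 9 tested genes of glucocorticoid signalling, 0 passed between coconut oil and beef tallow, with a median of 0.17. NR3C1, the glucocorticoid receptor, differed by 0.65 ± 0.19 (limma's adjusted p = 0.0735), and CEBPB by 0.44 ± 0.21 (limma's adjusted p = 0.24). With olive oil NR3C1 rose in barrows over gilts, by 1.31 ± 0.26 (limma's adjusted p = 0.0457), the one listed gene that passed there; the call was kept in 6 of 24 fits that each left out 1 pig (limma's adjusted p up to 0.262). Its signals with olive oil were 1101.1, 1637.0 and 1659.0 in barrows and 496.0, 597.0 and 655.0 in gilts, which do not overlap. Averaged over the fats it rose in barrows by 0.49 ± 0.13 (limma's adjusted p = 0.0366), a call kept in 10 of 24 such fits. Both NR3C1 calls were made at the brighter of its 2 tested probe sets, and the dimmer one passed in neither comparison.

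Beside FBXO32, 0 of 8 tested muscle ubiquitin ligases and atrophy genes passed for coconut oil minus beef tallow, with a median of 0.27. FBXO31 differed by 0.60 ± 0.22 (limma's adjusted p = 0.134) and FBXW7 by 0.58 ± 0.22 (limma's adjusted p = 0.151); both encode F-box proteins. TRIM63, the RING ligase MuRF1, was not analysed here. Barrows had higher TRIM55 (0.55 ± 0.15, limma's adjusted p = 0.0414), a RING protein of the sarcomere, and higher TRAF6 (0.78 ± 0.21, limma's adjusted p = 0.0401), a ligase of signalling complexes. The TRIM55 call was kept in 7 of 24 fits without 1 pig and the TRAF6 call in 10 of 24. The SCF partners CUL1 and NEDD8 differed by 0.21 and -0.06 between coconut oil and beef tallow (limma's adjusted p = 0.281 and 0.821). Of the 4 tested substrates reported for FBXO32, VIM differed by -0.55 ± 0.18 (limma's adjusted p = 0.0979) and DES by 0.34 ± 0.17 (limma's adjusted p = 0.288). PPP3CA, a catalytic subunit of calcineurin, rose in barrows over gilts by 0.47 ± 0.11 (limma's adjusted p = 0.0209). PPP3CA had 3 tested probe sets of similar signal, and only the brightest passed there.

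Among FOXO targets outside protein breakdown, CITED2, a transcriptional coregulator, was the gene that fell with coconut oil. Its signals with coconut oil were 601.6, 761.9 and 763.1 in barrows and 709.7, 866.0 and 954.1 in gilts. With beef tallow they were 2108.0, 2276.8 and 2310.1 in barrows and 949.9, 1246.0 and 1531.7 in gilts. In gilts the groups overlapped, from 949.9 to 954.1. The difference over both sexes was -1.10 ± 0.22 (limma's adjusted p = 0.0378). In barrows alone it was -1.66 ± 0.31 (limma's adjusted p = 0.0251), where 2.07% of the tested probe sets were called. The call over both sexes was kept in 15 of 24 fits that each left out 1 pig (limma's adjusted p 0.0159 to 0.112) and was lost without a signal filter (0.0815) and with the additive model (0.073). The call in barrows was kept in 19 of 24 and lost without a filter (0.0581) and without pigs 11, 16 and 12 (0.0556). PCK1, the gluconeogenic enzyme that FOXO1 turns on in liver, differed by -2.03 ± 0.87 (limma's adjusted p = 0.203). Of 13 tested genes of autophagy and the lysosome 0 passed, with BNIP3L at -0.77 ± 0.21 (limma's adjusted p = 0.0687) and TFEB at 0.11 (limma's adjusted p = 0.688).

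Of 9 tested genes of amino acid breakdown and KLF15 targets, 0 passed at their brightest probe set, with a median of 0.28 for coconut oil minus beef tallow. GLUL, the glutamine synthetase, differed by 0.62 ± 0.19 at its brightest probe set (limma's adjusted p = 0.0798) and rose by 1.31 ± 0.29 at the other (limma's adjusted p = 0.0413), a call kept in 13 of 24 fits without 1 pig and 6 of 9 other settings. BCKDHA, a subunit of the branched-chain ketoacid dehydrogenase, differed by 0.39 ± 0.21 (limma's adjusted p = 0.316). The other Krüppel-like factors KLF10 and KLF4 differed by 0.08 and 0.06 (limma's adjusted p = 0.893 and 0.953). Of 9 tested genes of myostatin and activin signalling 0 passed, with INHBA at -0.19 and FSTL3 at -0.22 (limma's adjusted p = 0.49 and 0.612). In barrows alone FST, the activin antagonist follistatin, fell at a dimmer probe set by -1.34 ± 0.31 (limma's adjusted p = 0.0358), a call kept in 19 of 24 fits without 1 pig and 4 of 7 other settings. Over all tested probe sets 2.07% were called in that comparison, 50 higher and 248 lower.

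Between the sexes, PRKAA2, the catalytic alpha 2 subunit of the energy-sensing kinase AMPK, rose most among the listed genes, by 0.80 ± 0.15 in barrows over gilts (limma's adjusted p = 0.00475). PDPK1, the kinase upstream of AKT, did not pass at its brightest probe set and rose at another by 0.68 ± 0.08 (limma's adjusted p = 3.39e-05). YWHAZ, a 14-3-3 protein that binds phosphorylated FOXO factors, differed by -0.46 without passing (limma's adjusted p = 0.209).

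**Figure D4:**
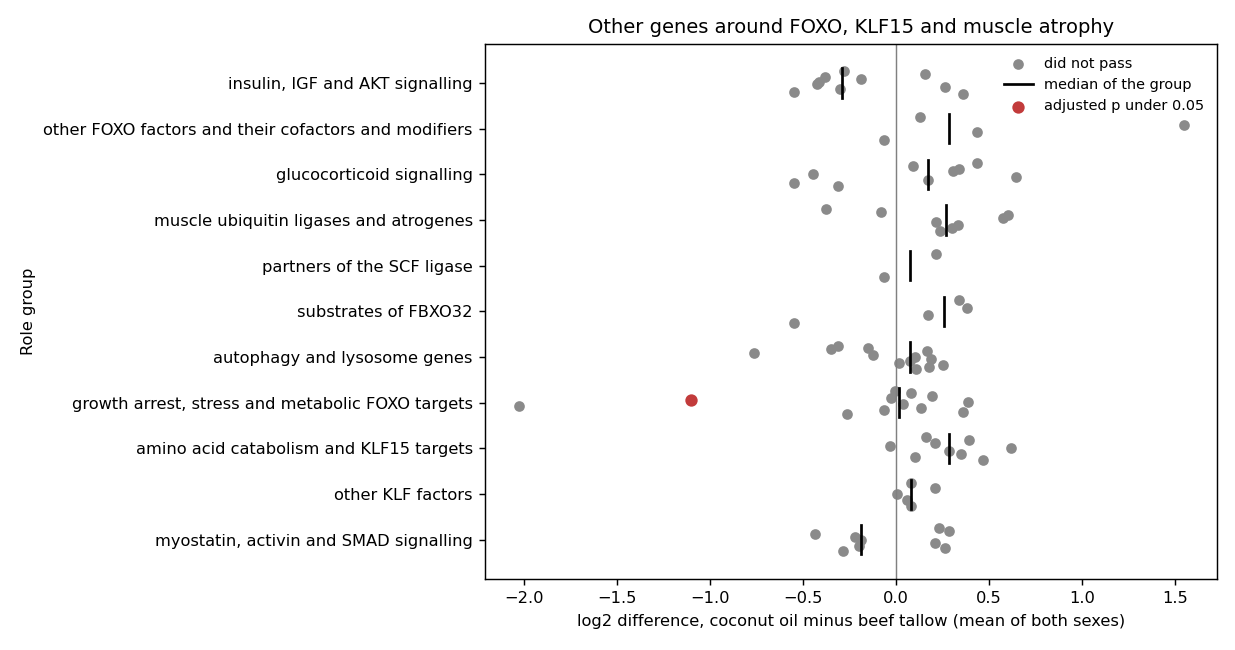
Log2 difference for coconut oil minus beef tallow of 84 tested genes in 11 role groups, 1 point per gene at its brightest probe set, with a line at the median of each group and CITED2, which passed, in red. Medians lay between -0.29 for insulin, IGF and AKT signalling and 0.28 for amino acid catabolism and KLF15 targets.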

How the data were processed

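Expression was measured on 24 arrays, 1 per pig. The deposited values are probe set intensity on a linear scale. Per the labels, a 3' amplification kit with biotin label was used; no summarisation algorithm is named there. On every array the mean after trimming 2% of values at each end was 500.1 to 500.2, so the deposited intensity values had been scaled to a common level and not quantile normalized. Signals were turned into log2(signal + 1). Of 23999 probe sets other than controls, the 14399 with a mean at or above the 40th percentile (signal 86.3) entered a limma fit (version 3.58.1, R 4.3.3) of 8 means of fat and sex, with Benjamini-Hochberg adjustment within each comparison over all tested probe sets and 0.05 as the threshold. Precision is limited by how many pigs each group had, and p-values measure the spread between pigs. Symbols came from the platform annotation: 10069 probe sets had 1, 198 several and 13732 none. Updating through gene identifiers used RefSeq names of assembly Sscrofa11.1.

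Exact permutation tests were two-sided and unadjusted, run for the 6 pairs of fats and for sex. Correlations over the 3 pairs of genes used 100000 permutations. The fit was tested on simulated data. The alternatives tried were quantile normalization, median centring, no signal filter, a 60th percentile filter, a pseudocount of 16, array weights, an additive model, fits of 2 fats or 1 sex alone, and leaving out each pig. Leaving out pigs 11, 16 and 12 was added after seeing the data. The 3 genes and all lists were chosen with earlier results of these data known. Genes were named if a listed gene passed a comparison of fats or sexes at its brightest probe set, had 1 of the 2 smallest F test p in its role group, or was among the 5 with the highest r. FOXO3, the other FOXO factor, and genes that passed at a dimmer probe set were named after their values were seen.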

Additional observations from a re-analysis of the deposited data

Results flagged for a closer look

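The FBXO32 probe set Ssc.4368.3.S1_at had a signal of 448.9 in pig 19, a barrow fed soybean oil, far below the other 5 pigs on that fat. The brighter FBXO32 probe set was not picked out by the same rule, although pig 19 was the lowest on that fat there too, at 1468.5. At the 95% critical value used, about 1 in 20 groups is picked out by chance, and 20 groups of 6 pigs were examined, which are not independent. Without pig 19, soybean oil minus olive oil in FBXO32, at the brighter probe set, was 0.04 with all other pigs kept, against -0.35 with it, and soybean oil minus beef tallow was 0.34, against -0.04 with it. Soybean oil minus coconut oil was -0.86, against -1.25 with it, and for KLF15 -0.23, against -0.43 with it. All of these differences are averaged over the sexes. With all pigs kept, FBXO32 soybean oil minus olive oil was -1.97 in barrows and 1.27 in gilts.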

How the results depend on the processing

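No comparison of FBXO32, FOXO1 or KLF15 passed in the main analysis. KLF15, coconut oil minus beef tallow, passed at 0.7466 with the 60th percentile filter (adjusted p = 0.0464) and at 0.7371 with array weights (adjusted p = 0.0214); leaving out 1 pig gave 0.64 to 0.847 (limma's adjusted p 0.0425 to 0.158), with passes without pig 12 or pig 19. FBXO32, barrow minus gilt with olive oil, passed at 3.0079 with median centring; leaving out 1 pig gave 2.1747 to 3.5015 (limma's adjusted p 0.0395 to 0.262), with a pass without pig 19. Unadjusted exact permutation p were under 0.05 for FBXO32 at -1.2488 (soybean oil minus coconut oil) and 1.2042 (coconut oil minus beef tallow), FOXO1 at -0.8528 (soybean oil minus coconut oil), and KLF15 at 0.5804 (olive oil minus beef tallow) and 0.7466 (coconut oil minus beef tallow). The FOXO1 and KLF15 correlation no longer passed on residuals (0.094) or without 2 pigs (0.305).

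Among the listed genes that passed, PRKAA2, PDPK1 and PPP3CA (barrow minus gilt) passed in all 24 fits without 1 pig, PDPK1 and PPP3CA each at 1 of their tested probe sets. The calls of CITED2, FST, GLUL, IGF2, NR3C1, PIK3IP1, TRAF6 and TRIM55 were kept in 6 to 19 of 24 (lowest for NR3C1 with olive oil). Each of these calls kept its direction there. Of these 13 calls, 11 were lost with no signal filter, 8 without pigs 11, 16 and 12, 4 with quantile normalization, 3 with the additive model and 2 with median centring.

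Small differences changed sign. With array weights, FBXO32 soybean oil minus beef tallow was 0.0076, FOXO1 olive oil minus beef tallow in gilts -0.1218 and FOXO1 olive oil minus coconut oil in barrows -0.0073; without pigs 11, 16 and 12, FBXO32 soybean oil minus beef tallow was 0.1801. Leaving out 1 pig gave -0.719 to 0.0399 for FBXO32 soybean oil minus olive oil and -0.3309 to 0.3434 for FBXO32 soybean oil minus beef tallow. For FOXO1 it gave -0.3176 to 0.1017 for soybean oil minus beef tallow, -0.247 to 0.5305 for olive oil minus coconut oil in barrows, -0.0125 to 0.821 for coconut oil minus beef tallow in barrows, -0.057 to 0.6057 for olive oil minus beef tallow in gilts and -0.1484 to 0.751 for its difference between the sexes. For KLF15 soybean oil minus coconut oil in barrows it gave -0.5361 to 0.0817. The cause was not tested.

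Counts of called probe sets depended on the setting. For coconut oil minus beef tallow, 161 were called, against 6 with no filter, 279 with the 60th percentile filter, 51 with quantile normalization, 1264 with array weights, 0 with the additive model, 313 with the arrays of the 2 fats, 260 without pigs 11, 16 and 12, and 0 to 664 without 1 pig. In barrows alone 298 were called, against 0 with no filter, 91 with quantile normalization, 619 with array weights, 690 with the arrays of barrows, 3 without pigs 11, 16 and 12, and 0 to 747 without 1 pig. For olive oil minus beef tallow in barrows 17 were called, against 0 with no filter, 6 with the 60th percentile filter, 1 with quantile normalization or without pigs 11, 16 and 12, 48 with array weights, and 0 to 164 without 1 pig. For barrow minus gilt 687 were called, against 302 with no filter, 1530 with array weights, 416 without pigs 11, 16 and 12, and 386 to 1057 without 1 pig; with olive oil alone 27, against 14 with no filter or the 60th percentile filter, 189 with array weights, 9 without pigs 11, 16 and 12, and 9 to 494 without 1 pig. For soybean oil minus coconut oil 0 were called, against 3 with no filter or without pigs 11, 16 and 12, 5 with array weights, 33 with the arrays of the 2 fats, and 0 to 4 without 1 pig. No paired analysis was possible, since each pig gave 1 array and the pens of the sampled pigs are not stated.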
